A study of Rattus norvegicus with 47 samples.

Results

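Livers of female Sprague-Dawley rats raised on a diet without vitamin A were compared with livers of rats fed an adequate amount, using the 5 arrays titled Deficient and the 6 titled Adequate. These 11 arrays were taken by title from the 20 arrays of the diet experiment and the 47 of the series. From weaning until 8 weeks of age, deficient rats ate purified feed with 0 mg/kg of retinol, the alcohol form of vitamin A, while adequate rats ate the same feed with 4 mg/kg. In all diet groups, adequate controls included, the nursing dam had also been fed the deficient diet. Each array held RNA of 1 rat liver, which per the labels was a single animal and not a pool. The statistical fit described below also held the other diet groups, rats fed 0.4 mg/kg (marginal, 7 arrays) or 100 mg/kg (supplemented, 2 arrays). Another experiment serves as context. Its deficient rats of 8 weeks were given about 100 µg of all-trans retinoic acid and killed after 3, 6, 10 or 16 h (13 arrays) or given vehicle (3 arrays).

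Vitamin A is carried to the liver, esterified and stored mainly in stellate cells, and part of it is oxidised to retinoic acid. Retinoic acid binds the RAR receptors, which pair with RXR receptors on paired half-sites in DNA and switch genes on. Among the best known of these genes are those that store retinol or destroy retinoic acid. Hepatocytes also turn dietary sugar into fatty acids and make most of the cytochrome P450 enzymes that handle steroids and drugs.

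Values are log2 signals as deposited, in which 0 is the median probe set of an array, a difference of 1 is a doubling, and each array has its own lowest value, its floor. Differences are deficient minus adequate from a limma fit of all 20 diet arrays, with the run of sample numbers as a covariate. The marginal and supplemented arrays thus also set the filter, the run effect and the spread behind each p-value. Differences are given with their standard error (SE), while group means have a standard deviation (SD). The sample numbers in the titles fall into 2 runs (run 1 and run 2 below), which are called runs here because the labels give no other meaning. Deficient replicates 4 and 5 and adequate replicates 3 to 6 lay in the first run, and deficient replicates 1 to 3 and adequate replicates 1 and 2 in the second. A gene, represented by its brightest probe set, counts as called where its p-value, adjusted by the method of Benjamini and Hochberg over all 27595 probe sets tested, fell below 0.05. Limma p-values below are adjusted by the same method over the probe sets of their own fit, except where they are called unadjusted.

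The arrays of 4 livers stood apart on measures of array quality. Deficient replicates 1 and 2 had a narrow range of signals, from -2.69 to 3.49 and from -2.96 to 3.65 between the low and the high tail (5 in 100 probe sets beyond each end), where the other arrays of their run reached -3.32 or below and 4.10 or above. Deficient replicate 5 and adequate replicate 5 had the lowest median correlation with the other arrays of their run (0.790 and 0.809, where the others had 0.842 to 0.863), and signals of the 3' GAPDH control probe set 0.922 and 1.37 above the 5' one, where other arrays had at most 0.541. The main counts below are therefore also given without these 4 arrays, which left 2 deficient and 5 adequate. On the label check, 12 of the 13 hepatocyte markers tested were at 7.19 or more on all 20 diet arrays, Alb at 8.52 or more, and Tat was between 2.73 and 6.19.

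Deficiency was followed mostly by lower signals. Among 27595 probe sets, 22 (0.0797%) rose and 277 (1%) fell, 299 in all (1.08%), while the median of all probe sets was itself -0.11. Per gene, 16 of 13319 rose (0.12%) and 196 fell (1.47%). In 39 genes (0.293%) every deficient array lay above every adequate one, and in 139 (1.04%) every deficient array lay below. The share of rises depended on how arrays were scaled: quantile normalization, which gives each array the same distribution, made 119 of 338 calls rises (35.2%), against 7.36% of calls as deposited, and moved the median to -0.02. Without the 4 arrays that stood apart, 25 probe sets rose and 61 fell, of which 11 and 52 were also called with all arrays. When the fit held the deficient and adequate arrays alone, 12 probe sets rose and 132 fell, 144 in all. Leaving out 1 array mattered as well, with 1493 calls without deficient replicate 4, 192 without deficient replicate 1, 175 without deficient replicate 5, 164 without adequate replicate 1 and 156 without adequate replicate 2. Of the 72 called genes named below, 43 kept their call whichever array was left out, and 24 of these did so without the 4 arrays too. All 72 had the same direction in both runs, which their selection from both runs together largely sets.

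Retinoid genes fell as a small, steep group. Cyp26a1 encodes the enzyme that oxidises retinoic acid for removal. Its signal was -1.24, -1.46, -3.32, -1.43 and -0.43 on deficient arrays 1 to 5, while adequate arrays ran from 0.08 over a median of 0.22 to 1.26. The groups did not overlap, and deficient replicate 3 lay at its floor. The difference was -1.94 ± 0.46 (adjusted p = 0.0255) and kept its call without the 4 arrays that stood apart (adjusted p = 0.0149), but it was -1.68 (adjusted p = 0.144) without adequate replicate 1 and -1.92 (adjusted p = 0.0849) without adequate replicate 2.

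Lrat esterifies retinol for storage and is most abundant in stellate cells. Deficient arrays 1 to 5 had -2.17, 0.10, -3.32, -0.61 and -0.19, the third at its floor, and adequate arrays had 1.68 to 2.03 with a median of 1.81. The adequate livers were close together and all lay above every deficient liver, and the deficient values were widely spread. Lrat fell by 2.89 ± 0.39 (adjusted p = 2.72e-05), or 7.39-fold. In a piece of whole liver, fewer cells of a type and less RNA per cell cannot be told apart. The 43 tested stellate and matrix genes had a median difference of -0.01 and a summed linear level, relative to the array median, of 125 to 184 in deficient and 138 to 175 in adequate livers.

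Rarb encodes the retinoic acid receptor beta. Deficient arrays 1 to 5 had 2.61, 2.61, 3.48, 4.18 and 2.68, and adequate arrays had 4.12 to 4.91 with a median of 4.35. Deficient replicate 4 reached into the adequate range and the other 4 deficient livers lay below it. The difference was -1.28 ± 0.24 (adjusted p = 0.00303), and the call was lost without the 4 arrays that stood apart. Of the 12 receptor genes tested Rarb was the 1 that was called, where 1.47% of all genes fell and 0.12% rose. Their median was 0.06 against -0.16 over all genes. Rara was at 1.37 ± 0.31 (SD, n = 5) in deficient and 1.08 ± 0.46 (SD, n = 6) in adequate livers, and Rxra at 0.73 ± 0.94 in deficient and 0.44 ± 1.29 in adequate livers, neither called (adjusted p = 0.619 and 0.706).

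RAR and RXR pairs are known to bind direct repeats of a 6-base half-site with 5 bases between them. Promoters are printed for Cyp26a1 and Rarb because they are the members in which such a repeat was found, searched on both strands with half-sites that read A or G, then G, then G or T, then TCA, in all 16 combinations. The windows run from 250 bases before to 50 bases after the start in RefSeq (GRCr8), 5′ to 3′ along the gene, with the repeat in capitals. Cyp26a1 lies at chr1:244883572-244883871 and Rarb at chr15:11336142-11336441, both on the plus strand.
Cyp26a1: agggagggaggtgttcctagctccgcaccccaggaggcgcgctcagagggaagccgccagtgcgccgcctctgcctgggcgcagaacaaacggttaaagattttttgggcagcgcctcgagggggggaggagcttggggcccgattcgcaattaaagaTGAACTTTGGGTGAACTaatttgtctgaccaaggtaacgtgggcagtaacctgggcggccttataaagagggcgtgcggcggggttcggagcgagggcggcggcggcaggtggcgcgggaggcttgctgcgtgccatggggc
Rarb: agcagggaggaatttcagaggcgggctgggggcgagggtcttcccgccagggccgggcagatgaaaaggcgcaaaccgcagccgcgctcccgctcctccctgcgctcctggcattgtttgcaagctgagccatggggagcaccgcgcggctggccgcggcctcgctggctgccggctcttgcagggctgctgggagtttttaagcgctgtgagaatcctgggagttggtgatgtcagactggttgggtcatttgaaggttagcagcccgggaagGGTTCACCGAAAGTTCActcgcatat
In Cyp26a1 the repeat spans bases -92 to -76 and matches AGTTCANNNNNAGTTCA on the opposite strand. In Rarb it spans bases 25 to 41 after the start and matches GGTTCANNNNNAGTTCA on the strand shown. Such a repeat was in 128 of all 33469 promoter windows (0.382%) and in 2 of the 56 windows found for the 72 called genes. A match is a string of letters, and no binding was measured here.

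Cyp2c22, a rat P450 known to hydroxylate retinoic acid, had the smallest p of all probe sets. Deficient arrays 1 to 5 had 0.67, 1.07, 0.90, 3.86 and 3.06, and adequate arrays 6.45 to 7.21 with a median of 6.76. The 2 deficient livers of the first run, replicates 4 and 5, lay above those of the second, and all 5 lay below the adequate ones. Cyp2c22 fell by 4.57 ± 0.29 (adjusted p = 6.54e-12), or 23.7-fold. Among the 86 genes followed by name it is also the 1 whose difference changed between runs, at -3.39 in the first and -5.78 in the second (difference of runs -2.40, adjusted p = 0.00876), while 15 of 27595 probe sets (0.0544%) had such a change.

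Other retinoid genes moved less. Of 33 tested genes of retinoid handling, Lrat, Cyp26a1 and Cyp2c22 were the 3 that fell (1.47% of all genes did) and none rose in limma. An unadjusted p under 0.05 was found in 8 (2053 of all 13319 genes), and the median was -0.23 against -0.16 over all genes. The same 3 fell without the 4 arrays that stood apart (0.333% of all genes did). After quantile normalization 3 fell and 1 rose (1.16% and 0.668% of all genes did). Dhrs3, which reduces retinal back to retinol, had 3.00, 3.28, 3.11, 4.21 and 4.19 on deficient arrays and 3.80 to 4.70 on adequate ones, and was not called (-0.53 ± 0.16, adjusted p = 0.127). Cyp26b1, a second retinoic acid oxidase, had a dim signal with a mean of -2.26 ± 1.25 in deficient and -0.56 ± 1.39 in adequate livers (adjusted p = 0.409). The plasma carriers of retinol, Rbp4 and its partner Ttr, averaged 8.33 ± 0.82 and 8.83 ± 0.80 in deficient and 8.37 ± 0.36 and 8.74 ± 0.31 in adequate livers (adjusted p = 0.911 and 0.888). Aldh1a1, which makes retinoic acid from retinal, averaged 3.87 ± 0.75 in deficient and 4.29 ± 0.22 in adequate livers (adjusted p = 0.686).

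**Figure D1:**
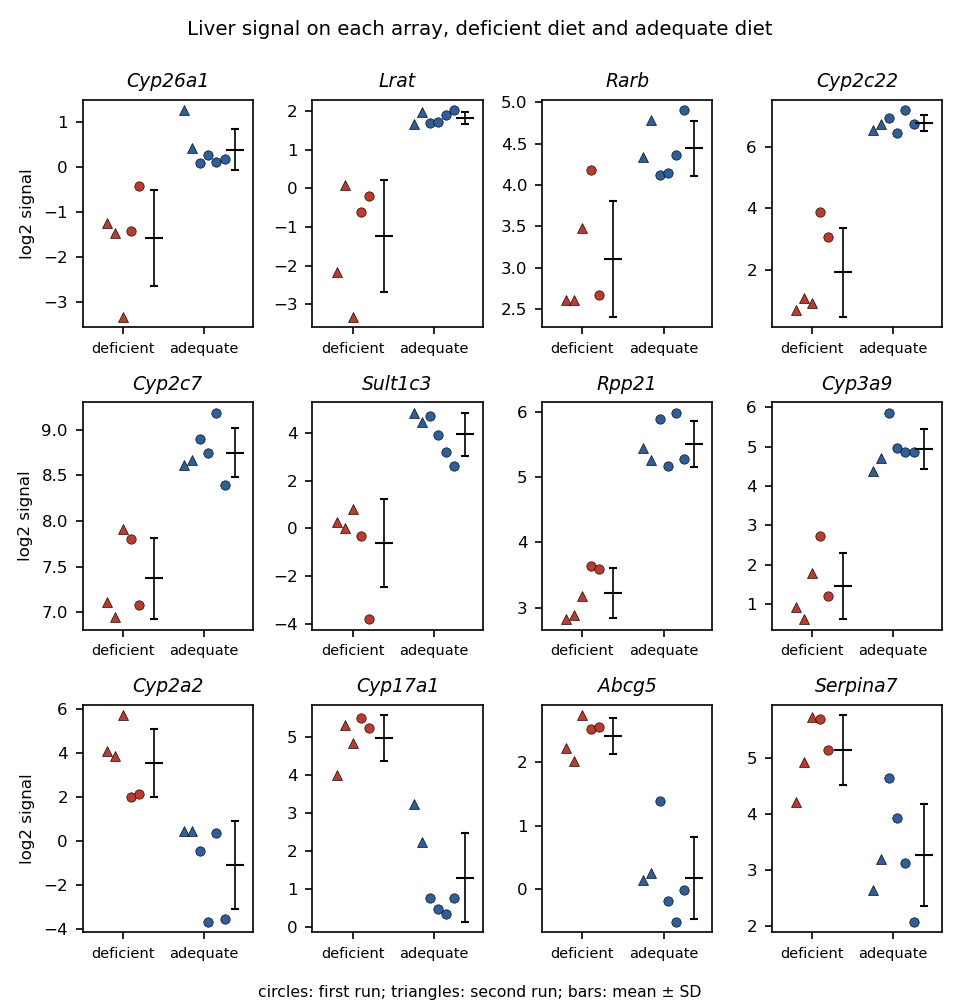
Log2 signal of 12 genes on each of the 5 deficient and 6 adequate arrays (y axes differ between panels), circles for the first run and triangles for the second, with mean and SD. In the first 8 panels deficient livers lie low, with overlap in Rarb alone, and in the last 4 they lie high, with overlap in Serpina7 alone.

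The largest fall of all genes tested belonged to Sult1c3, a cytosolic sulfotransferase. Its signal was 0.26, 0.02, 0.82, -0.33 and -3.82 on deficient arrays 1 to 5 and 2.61 to 4.87, with a median of 4.21, on adequate arrays. The groups lay apart, and deficient replicate 5 lay far below the other deficient livers. Sult1c3 fell by 4.80 ± 0.55 (adjusted p = 2.12e-06), or 27.9-fold. Rpp21, a protein subunit of ribonuclease P, had 2.82, 2.88, 3.19, 3.64 and 3.59 on deficient arrays and 5.16 to 5.99 on adequate ones, a fall of 2.18 ± 0.18 (adjusted p = 9.4e-10). Otub2, a deubiquitinase, fell by 2.57 ± 0.29 (adjusted p = 2.12e-06) and Car2, carbonic anhydrase 2, by 2.59 ± 0.37 (adjusted p = 8.43e-05), each with every deficient liver below every adequate one. For both, a second probe set was also called lower. Stac3, an adaptor known from skeletal muscle, fell by 3.13 ± 0.51, and its groups overlapped (0.37 on deficient replicate 2 and 0.14 on adequate replicate 5). Lifr, the receptor of leukaemia inhibitory factor, fell by 2.65 ± 0.49 (adjusted p = 0.00189) with much spread in both groups, 0.17 ± 2.47 in deficient and 2.15 ± 1.42 in adequate livers. The other 7 genes among the 25 largest falls, Cadps, Cdk5rap2, Arhgef19, Atp8b4, Stk38l, Slc25a21 and Lrfn1, fell by 2.14 to 2.64, and of these Arhgef19 and Atp8b4 kept their calls whichever array was left out. Sult1c3, Rpp21, Otub2, Car2, Stac3 and Lifr kept their calls without the 4 arrays that stood apart and whichever single array was left out.

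Genes that make fatty acids fell broadly. Of 31 tested genes of fatty acid and triglyceride synthesis 13 fell (1.47% of all genes did) and 0 rose. An unadjusted p under 0.05 was found in 22 (2053 of all 13319 genes), and the median was -0.68 against -0.16 over all genes. In 11 members the deficient arrays all lay below the adequate ones, as in 1.04% of all genes. After quantile normalization 12 fell and 2 rose (1.16% and 0.668% of all genes did). Without the 4 arrays that stood apart 5 fell and 1 rose (0.333% and 0.139% of all genes did). The list's medians were then -0.46 and -0.49, against -0.03 and 0.05 over all genes. On the list's own median signal, deficient arrays 1 to 5 had 2.88, 2.94, 3.35, 3.74 and 3.49 and adequate arrays 4.40 to 4.85. The list's median difference was -0.32 in run 1 and -1.18 in run 2, where that of all genes was 0.02 and -0.37.

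Scd introduces the double bond of oleate. Its signal was 2.26, 1.44, 2.14, 3.74 and 3.49 on deficient arrays and 4.69 to 7.45, with a median of 6.49, on adequate arrays. No deficient liver reached the lowest adequate one, adequate replicate 3. Scd fell by 3.65 ± 0.45 (adjusted p = 5.19e-06), or 12.6-fold. Fasn, the synthase that builds palmitate, had 3.73, 3.39, 3.84, 3.56 and 3.09 on deficient arrays and 5.04 to 6.73, with a median of 6.29, on adequate arrays. The 5 deficient livers were close together (SD 0.29), and Fasn fell by 2.66 ± 0.30 (adjusted p = 2.12e-06), or 6.33-fold, with a second probe set at -2.79. Elovl6, which lengthens palmitate to stearate, had 2.56, 2.60, 2.09, 1.64 and 0.76 on deficient arrays and 3.14 to 5.10 on adequate arrays, a fall of 2.46 ± 0.35 (adjusted p = 9.24e-05). Scd, Fasn and Elovl6 kept their calls without the 4 arrays that stood apart and whichever single array was left out.

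Besides Scd, Fasn and Elovl6, 10 members of the list fell, while the other 18 of the 31 were not called and 4 of the list had a positive difference. Acly, which supplies cytosolic acetyl-CoA from citrate, averaged 5.38 ± 0.54 in deficient and 6.80 ± 0.43 in adequate livers and fell by 1.54 ± 0.26 (adjusted p = 0.000834). Acaca, the acetyl-CoA carboxylase that makes malonyl-CoA, averaged 2.77 ± 0.51 in deficient and 4.46 ± 0.58 in adequate livers and fell by 1.73 ± 0.27 (adjusted p = 0.000217). Mid1ip1, a partner of that carboxylase, fell by 1.26 ± 0.19, and Angptl8, a regulator of lipoprotein lipase, by 1.06 ± 0.20. Me1 and Pgd, which supply NADPH, fell by 1.34 ± 0.30 and 1.01 ± 0.24, Pklr, the liver pyruvate kinase, by 1.39 ± 0.30, and Acss2, which activates acetate, by 1.12 ± 0.22. These 8 genes were picked out after their values were seen, to complete the 13. Pnpla3, a lipid droplet protein, had 2.88, 2.24, 1.94, 0.80 and 0.05 on deficient arrays and 2.26 to 5.72 on adequate ones, with overlap between the groups, and fell by 2.97 ± 0.59 (adjusted p = 0.00465). Aacs, which activates acetoacetate for lipid synthesis, fell by 2.48 ± 0.43 (adjusted p = 0.00107). Of these 10 genes Mid1ip1 and Angptl8 kept their calls without the 4 arrays that stood apart. Srebf1, which encodes a transcription factor of this pathway, was not called, at 4.61 ± 0.41 in deficient and 5.30 ± 0.56 in adequate livers (adjusted p = 0.301).

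**Figure D2:**
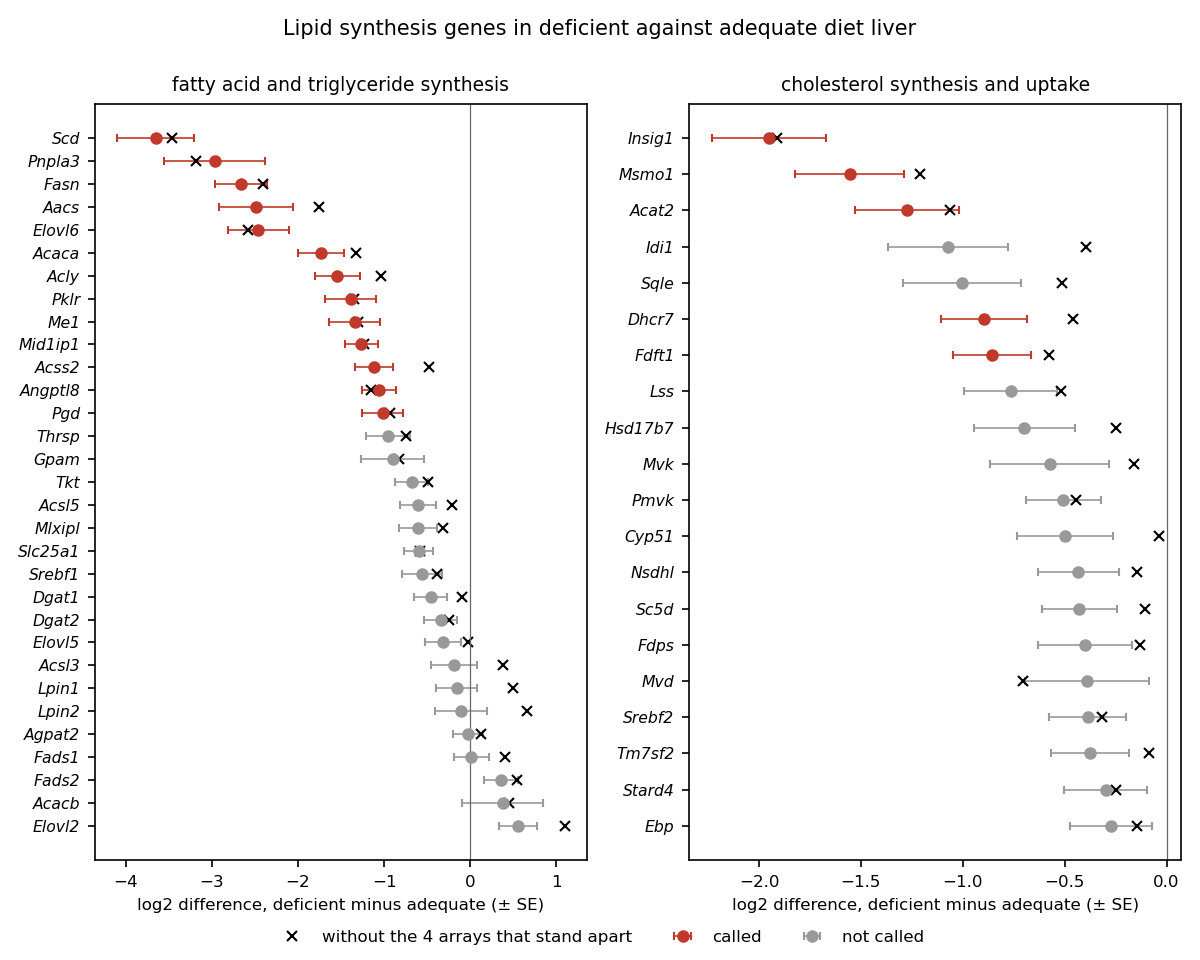
Difference of deficient and adequate livers with SE (x axis, log2) for each tested gene of fatty acid and triglyceride synthesis (31, left) and of cholesterol synthesis and uptake (20, right), red where called. Crosses give the difference without the 4 arrays that stood apart. Called genes lie at -0.86 or below, and all 20 cholesterol genes lie below 0.

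Cholesterol synthesis shifted the same way by less. All 20 tested genes had a negative difference, with a median of -0.54, and 5 fell (1.47% of all genes did), 14 having an unadjusted p under 0.05. Of all 13319 genes, 8576 had a negative difference and 2053 an unadjusted p under 0.05, with a median of -0.16. After quantile normalization 3 of the 20 fell (1.16% of all genes did), with a median of -0.39 against -0.03 over all genes. Without the 4 arrays that stood apart 1 fell (0.333% of all genes did), with a median of -0.36 against 0.05 over all genes. Insig1 encodes the membrane protein that holds sterol sensors in the endoplasmic reticulum. It had 5.37, 4.92, 5.53, 3.44 and 3.13 on deficient arrays and 5.75 to 6.73 on adequate ones, a fall of 1.95 ± 0.28 (adjusted p = 9.09e-05) that kept its call without the 4 arrays. The enzymes Msmo1, Acat2, Dhcr7 and Fdft1 fell by 1.55 ± 0.27, 1.27 ± 0.25, 0.90 ± 0.21 and 0.86 ± 0.19.

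Fatty acid oxidation did not share this pattern. Of 38 tested genes 0 were called by limma in either direction, with 11 at an unadjusted p under 0.05 and a median of 0.13, 24 of the differences being positive. Over all 13319 genes the median was -0.16, with 4743 positive differences and 2053 genes at an unadjusted p under 0.05. After quantile normalization 8 of the 38 rose (0.668% of all genes did), and without the 4 arrays that stood apart 1 rose (0.139% of all genes did). The median was 0.46 in run 1 and -0.29 in run 2. Cpt1a, which admits fatty acids to the mitochondrion, averaged 6.52 ± 0.59 in deficient and 5.35 ± 0.90 in adequate livers, a difference of 0.94 ± 0.30 that missed the threshold (adjusted p = 0.156) and passed it after quantile normalization (adjusted p = 0.00998). It was named after its value was seen.

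Genes of sugar handling fell in part. Of 18 tested genes of glycolysis, fructose and glycogen 5 fell and 0 rose (1.47% and 0.12% of all genes did), with a median of -0.50 against -0.16 over all genes. An unadjusted p under 0.05 was found in 10 (2053 of all 13319 genes). Ppp1r3b, which targets protein phosphatase 1 to glycogen, had 3.04, 3.11, 3.50, 3.42 and 2.48 on deficient arrays and 4.71 to 5.37 on adequate ones. The groups did not overlap, and Ppp1r3b fell by 1.81 ± 0.18 (adjusted p = 1.18e-07). Its second probe set was at -0.11 ± 0.66 (adjusted p = 0.969), and the mean of both was at -0.96 (adjusted p = 0.25). With all probe sets of a gene averaged, the calls of Ppp1r3b, Lifr, Bmp6, Cdk5rap2, Hlf, Igtp and Bmp2 were lost. Ppp1r3b was the 1 called member of the list without the 4 arrays that stood apart (0.333% of all genes fell). Slc2a5, the fructose transporter GLUT5, fell by 2.51 ± 0.39, Gbe1, which branches glycogen, by 1.16 ± 0.22, Pgk1, a glycolytic kinase, by 0.93 ± 0.22 and Khk, the fructose kinase, by 0.74 ± 0.19. Khk and Pgk1 lost their calls without each of 5 and 6 single arrays (adjusted p up to 0.213 and 0.202).

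The 16 genes that rose were led by 2 steroid-metabolising P450s. Cyp2a2, a testosterone hydroxylase known as male-specific in adult rat liver, had 4.11, 3.86, 5.73, 1.99 and 2.15 on deficient arrays and -3.68 to 0.45, with a median of -0.05, on adequate arrays. The groups were apart, and Cyp2a2 rose by 4.06 ± 0.64 (adjusted p = 0.000324), or 16.6-fold. Cyp17a1, the steroid 17-hydroxylase and lyase, had 4.00, 5.34, 4.84, 5.50 and 5.25 on deficient arrays, while adequate arrays had 0.35 to 3.26 with a median of 0.77. The 2 adequate livers of the second run, at 3.26 and 2.24, were the highest adequate ones, still below all deficient livers. Cyp17a1 rose by 3.49 ± 0.42 (adjusted p = 3.42e-06), or 11.3-fold, with a rise of 4.78 in run 1 and 1.98 in run 2 (difference of runs, adjusted p = 0.168). Both kept their calls without the 4 arrays that stood apart.

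Sex-biased genes moved in a mixed way. Of 13 tested genes described as higher in male rat liver Cyp2a2 was the 1 that rose and 0 fell, with a median of 0.41, and Cyp2c11, the male-specific P450 of rat, was at 1.16 ± 0.36 in deficient and 0.37 ± 1.00 in adequate livers (adjusted p = 0.408). Of 12 genes described as higher in female liver Cyp17a1 rose and 3 fell, with a median of -0.43, where all genes had a median of -0.16, 0.12% of rises and 1.47% of falls. Cyp3a9, a P450 known as higher in female rat liver, had 0.92, 0.60, 1.79, 2.73 and 1.21 on deficient arrays and 4.38 to 5.87 on adequate ones. No deficient liver reached the lowest adequate one, and Cyp3a9 fell by 3.35 ± 0.25 (adjusted p = 1.84e-10), or 10.2-fold. Cyp2c7, a P450 of adult female rat liver that also takes retinoids, had 7.12, 6.94, 7.91, 7.80 and 7.09 on deficient arrays and 8.39 to 9.19 on adequate ones, with no overlap, and fell by 1.38 ± 0.26 (adjusted p = 0.00293). A1bg, a plasma glycoprotein, fell by 1.17 ± 0.24 (adjusted p = 0.00721). Cyp2c12, the female-specific P450, was at 7.90 ± 0.36 in deficient and 8.49 ± 0.25 in adequate livers and was not called (adjusted p = 0.331). Without the 4 arrays that stood apart Cyp3a9 kept its call and Cyp2c7 and A1bg did not.

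Of 30 tested genes of bile acid synthesis and transport 2 rose (0.12% of all genes did) and 2 fell (1.47% of all genes did). A negative difference was found in 22 (8576 of all 13319 genes had one), with a median of -0.28 against -0.16 over all genes. Abcg5, 1 of the 2 proteins of the transporter that sends sterols into bile, had 2.22, 2.02, 2.74, 2.53 and 2.55 on deficient arrays and -0.52 to 1.38 on adequate arrays, and rose by 2.21 ± 0.46 (adjusted p = 0.00827) without overlap. Abcb4, which exports phosphatidylcholine into bile, rose by 0.78 ± 0.19 (adjusted p = 0.0304). Nr1h4, the bile acid receptor FXR, fell by 1.23 ± 0.22 (adjusted p = 0.00158), and Slco1b2, which takes up bile acids from blood, by 0.96 ± 0.24 (adjusted p = 0.0386). Without the 4 arrays that stood apart Abcb4 kept its call and Abcg5, Nr1h4 and Slco1b2 did not. Slco1b2 lost its call without each of 8 single arrays and Abcb4 without each of 4. Cyp7a1, the rate-limiting enzyme of bile acid synthesis, was not called, and its values separated by run in both groups. Deficient arrays 1 to 5 had 5.24, 4.84, 5.22, 1.59 and 0.30, and the adequate arrays had 5.35 and 5.65 in the second run and 0.70 to 2.46 in the first (adjusted p = 0.58).

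Amino acid, conjugation and one-carbon genes were called a few at a time. Sds, which turns serine into pyruvate, had 4.33, 4.98, 5.44, 4.49 and 4.22 on deficient arrays, and adequate arrays had 4.33 and 4.21 in the second run and 1.07 to 1.75 in the first, a rise of 1.76 ± 0.33 over both (adjusted p = 0.00266), 2.88 in run 1 and 0.64 in run 2. Oat, which passes ornithine towards glutamate, had 3.81, 4.21, 5.12, 5.89 and 5.19 on deficient arrays and 6.72 to 7.43 on adequate ones, and fell by 2.22 ± 0.27 (adjusted p = 5.19e-06). Gpt2, a mitochondrial alanine transaminase, and Gcgr, the glucagon receptor, fell by 1.14 ± 0.28 and 0.96 ± 0.24. They were at -0.315 and -0.39 in run 1 and at -1.935 and -1.61 in run 2 (difference of runs, adjusted p = 0.264 and 0.308). Each lost its call without each of 5 single arrays. Sds, Oat, Gpt2 and Gcgr were the calls among 32 tested genes of gluconeogenesis and amino acid catabolism, where 0.12% of all genes rose and 1.47% fell. Gstm2, a glutathione transferase, had 4.51, 4.85, 4.85, 6.41 and 6.89 on deficient arrays and 3.02 to 5.31 on adequate ones, with overlap. It rose by 1.47 ± 0.22 (adjusted p = 0.000217). Its call was lost without the run covariate, with the run as a random block and in the second run alone. Nqo1, a quinone reductase, fell by 1.33 ± 0.25 and Fmo5, a flavin monooxygenase, by 1.33 ± 0.27. Fmo5 was at -0.35 in run 1 and -2.30 in run 2. Sardh and Aldh1l1, enzymes of methyl group and folate metabolism, fell by 1.12 ± 0.20 and 0.83 ± 0.21. Aldh1l1 was at -0.37 in run 1 and -1.32 in run 2, and lost its call without each of 7 single arrays. Gnmt, which spends methyl groups on glycine, was at 5.28 ± 0.98 in deficient and 6.34 ± 0.52 in adequate livers and missed the threshold (adjusted p = 0.0768). Of these called genes Sds, Oat and Gstm2 kept their calls without the 4 arrays that stood apart.

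Among 11 tested genes of thyroid hormone binding and action 1 rose and 0 fell, among 30 of the acute phase and complement 1 rose and 1 fell, and among 16 of iron, haem and hepcidin 1 rose and 1 fell, where 0.12% of all genes rose and 1.47% fell. Serpina7, thyroxine-binding globulin, had 4.21, 4.92, 5.74, 5.69 and 5.14 on deficient arrays and 2.07 to 4.65 on adequate ones, with overlap, and rose by 1.98 ± 0.38 (adjusted p = 0.00319), with 1.97 in run 1 and 2.04 in run 2. The protease inhibitors A2ml1 and A2m rose by 1.91 ± 0.38 and 1.12 ± 0.27, and Orm1, an acute-phase plasma glycoprotein, fell by 1.53 ± 0.25 (adjusted p = 0.000593). Bmp6, which is known to induce hepcidin, rose by 1.26 ± 0.32 (adjusted p = 0.0465) but lost its call without each of 8 single arrays, and Hamp, hepcidin itself, was at 7.70 ± 0.64 in deficient and 7.44 ± 0.43 in adequate livers (adjusted p = 0.441). Alas1, the first enzyme of haem synthesis, fell by 0.86 ± 0.20 (adjusted p = 0.0249). Serpina7 and A2ml1 kept their calls without the 4 arrays that stood apart, and A2m, Orm1, Bmp6 and Alas1 did not. A2m and Alas1 also lost theirs without each of 4 and 6 single arrays. Igf1, the growth factor, was at 7.82 ± 0.30 in deficient and 8.15 ± 0.11 in adequate livers (adjusted p = 0.604).

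Other rises were Hhip, which binds hedgehog ligands, by 2.61 ± 0.65 (adjusted p = 0.0369), Rab30, a Golgi GTPase, by 1.82 ± 0.33 (adjusted p = 0.0018), Pla2g12a, a secreted phospholipase, by 1.80 ± 0.43 (adjusted p = 0.0278), Prelp, a matrix protein, by 1.70 ± 0.43 (adjusted p = 0.0434), Fabp7, a fatty acid binding protein, by 1.21 ± 0.21 (adjusted p = 0.00143) and Lpin3, a phosphatidate phosphatase, by 0.88 ± 0.22 (adjusted p = 0.0424). Rab30 and Fabp7 kept their calls without the 4 arrays that stood apart, and Hhip, Pla2g12a, Prelp and Lpin3 lost theirs there and without each of 4 to 7 single arrays. The call of Fabp7 was lost without a variance trend, without the run covariate, with the run as a random block and in the second run alone. Adequate replicate 1 was at its floor for Hhip. The transcription factor genes Hlf and Bhlhe40 fell by 1.10 ± 0.28 and 1.01 ± 0.25, with overlap between the groups.

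Interferon-response genes were low in part of the deficient livers. Of 44 tested genes 7 fell (1.47% of all genes did) and 0 rose, 38 had a negative difference, the median was -0.51 and 21 had an unadjusted p under 0.05. Of all 13319 genes, 8576 had a negative difference and 2053 an unadjusted p under 0.05, with a median of -0.16. After quantile normalization 7 of the 44 fell (1.16% of all genes did). Once the 4 arrays that stood apart were left out, limma called 0 of them (13 at an unadjusted p under 0.05). The median was then -0.30, against 0.05 over all genes, of which 0.333% fell. The median difference was -0.09 in run 1 and -1.16 in run 2. On the list's median signal, deficient replicates 1 to 3 of the second run had 1.20, 1.12 and 1.41, below the 2.15 and 2.23 of the adequate livers in that run, while in the first run deficient replicate 4 had 2.40, above the 1.77 to 2.25 of the adequate livers, and deficient replicate 5 had 1.65, below them. Parp9, a partner in interferon signalling, had 2.02, 1.59, 2.70, 3.09 and 2.32 on deficient arrays and 3.44 to 4.00 on adequate ones, and fell by 1.34 ± 0.20 (adjusted p = 0.000217). Ifi44l and Ifi27l2b, interferon-induced genes, fell by 1.34 ± 0.28 and 1.32 ± 0.25, the GTPase gene Igtp by 1.14 ± 0.23 and Rtp4 by 1.13 ± 0.25. The other called members, Psmb8 and Psmb9, are subunits of the immunoproteasome and fell by 0.92 ± 0.18 and 0.78 ± 0.18.

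The promoter window of Ifi44l is printed because it holds the core letters of the interferon-stimulated element, GAAANNGAAA, at 2 places, bases -91 to -82 (on the opposite strand) and -59 to -50, in capitals. It lies at chr2:243328473-243328772 (GRCr8, RefSeq), plus strand, 5′ to 3′.
Ifi44l: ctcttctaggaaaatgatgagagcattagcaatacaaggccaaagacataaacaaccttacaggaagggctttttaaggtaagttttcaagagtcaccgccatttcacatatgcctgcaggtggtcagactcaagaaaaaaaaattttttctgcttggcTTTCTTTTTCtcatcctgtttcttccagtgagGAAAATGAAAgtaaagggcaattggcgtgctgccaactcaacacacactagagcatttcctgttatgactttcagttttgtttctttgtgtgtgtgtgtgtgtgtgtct
The element was in 22 of the 35 windows found for the 44 tested interferon genes (62.9%), in 3 of the 5 found for the 7 that fell (Ifi44l, Igtp and Psmb8) and in 1312 of all 33469 windows (3.92%).

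The median gene had a difference of 0.02 in run 1 and -0.37 in run 2. Of the 277 probe sets that fell, 276 were negative in both runs, with medians of -0.99 in the first and -1.34 in the second, and the 22 that rose were positive in both, with medians of 2.12 and 1.51. Their selection from both runs together largely sets these directions. The second run holds the 2 deficient arrays of narrow range. Without them the median of all probe sets over both runs was -0.02, against -0.11 with them.

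**Figure D3:**
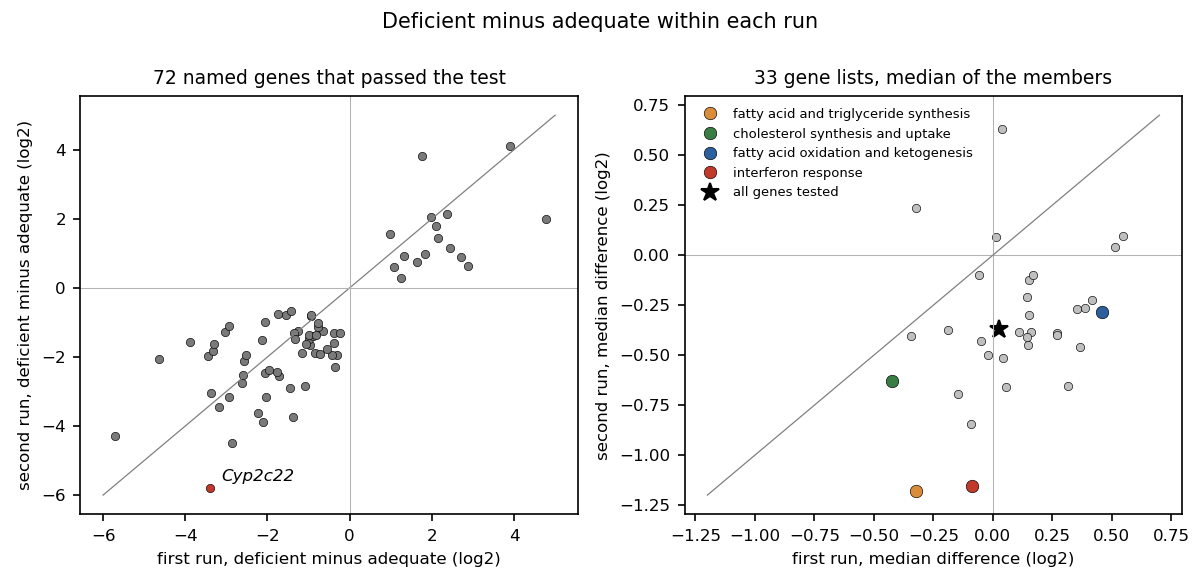
Difference of deficient and adequate livers (log2) in the second run (y axis) against the first (x axis), for the 72 called named genes (left, Cyp2c22 in red) and as the median of each of 33 gene lists (right), with equal values on the diagonal. Interferon genes sit near 0 in run 1 (-0.09) and at -1.16 in run 2, where the median of all genes is -0.37.

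Few markers of other cell types were called. None of the lists for Kupffer cells (18 tested), cholangiocytes (10), B, T and NK cells (23), neutrophils and mast cells (9) and erythroid cells (5) had a called gene in limma. Each had 1 to 3 members at an unadjusted p under 0.05 (2053 of all 13319 genes). Summed linear levels of the Kupffer markers were 103 to 351 in deficient and 176 to 282 in adequate livers. Of 43 stellate and matrix genes 2 rose (0.12% of all genes did) and 1 fell (1.47% of all genes did), and 0 were called by limma without the 4 arrays that stood apart (4 at an unadjusted p under 0.05). The rises were Hhip and Prelp, by 2.61 ± 0.65 and 1.70 ± 0.43. The fall was that of lumican (Lum), a matrix proteoglycan of stellate cells and fibroblasts. It was dim in both groups, at -3.46, -2.73, -1.89, -5.30 and -4.64 on deficient arrays, the fourth at its floor, and -1.38 to 0.57 on adequate ones, and fell by 3.26 ± 0.74 (adjusted p = 0.0188). The call of Lum was lost without the 4 arrays (-3.19, adjusted p = 0.284) and without deficient replicate 5 (-2.99, adjusted p = 0.0866). Cpa1, a pancreatic digestive enzyme, had 0.82, -1.42, -0.71, 0.39 and 0.69 on deficient arrays and 2.46 to 4.27 on adequate ones, and fell by 2.83 ± 0.48 (adjusted p = 0.000809). It was the 1 called gene of 14 acinar markers (1.47% of all genes fell). Their summed linear level was 12.5 to 16.9 in deficient and 14.2 to 28.8 in adequate livers. Among them the trypsinogen gene Prss1 averaged -1.51 in deficient and -0.73 in adequate livers. Bmp2, a ligand made by liver endothelium, fell by 1.22 ± 0.29 (adjusted p = 0.0269), and by 0.71 (adjusted p = 0.233) without deficient replicate 5. It was the 1 called gene of 20 endothelial genes tested (1.47% of all genes fell).

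Across the 4 diets, Cyp2c22, Lrat and Fasn differed between deficient livers and marginal ones, which had the lowest amount of retinol. Their selection for low values on the same deficient arrays largely sets that separation. Not every called gene passed that test, and Hhip, Prelp, Dhcr7 and Ifi44l were among those that did not. Cyp2c22 averaged 1.91 ± 1.45 in deficient, 6.33 ± 0.63 in marginal, 6.78 ± 0.27 in adequate and 8.11 ± 0.10 in supplemented livers (SD, n = 5, 7, 6 and 2). Lrat averaged -1.24 ± 1.46, 1.65 ± 0.47, 1.83 ± 0.15 and 2.98 ± 0.36 in that order, and Fasn 3.52 ± 0.29, 6.03 ± 0.82, 6.10 ± 0.61 and 5.88 ± 0.25. For all 3 the marginal livers differed from deficient ones, by 4.22 ± 0.28, 2.77 ± 0.37 and 2.56 ± 0.29 (adjusted p = 1.6e-11, 2.33e-05 and 1.91e-06), while their differences from adequate ones did not pass the test, at -0.34 ± 0.27, -0.12 ± 0.35 and -0.10 ± 0.27 (adjusted p = 1 each). Cyp26a1 took another course, at -1.58 ± 1.06, -0.14 ± 0.60, 0.38 ± 0.45 and 4.76 ± 0.68, with supplemented livers 4.35 ± 0.62 above adequate ones (adjusted p = 0.000729) and marginal livers not separated from deficient ones (1.42 ± 0.44, adjusted p = 0.0893). Cyp17a1 went down in the same order, at 4.99 ± 0.60, 1.72 ± 0.96, 1.31 ± 1.17 and -2.92 ± 0.16. These comparisons share the deficient or the adequate arrays, and the first run holds both arrays of supplemented rats.

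**Figure D4:**
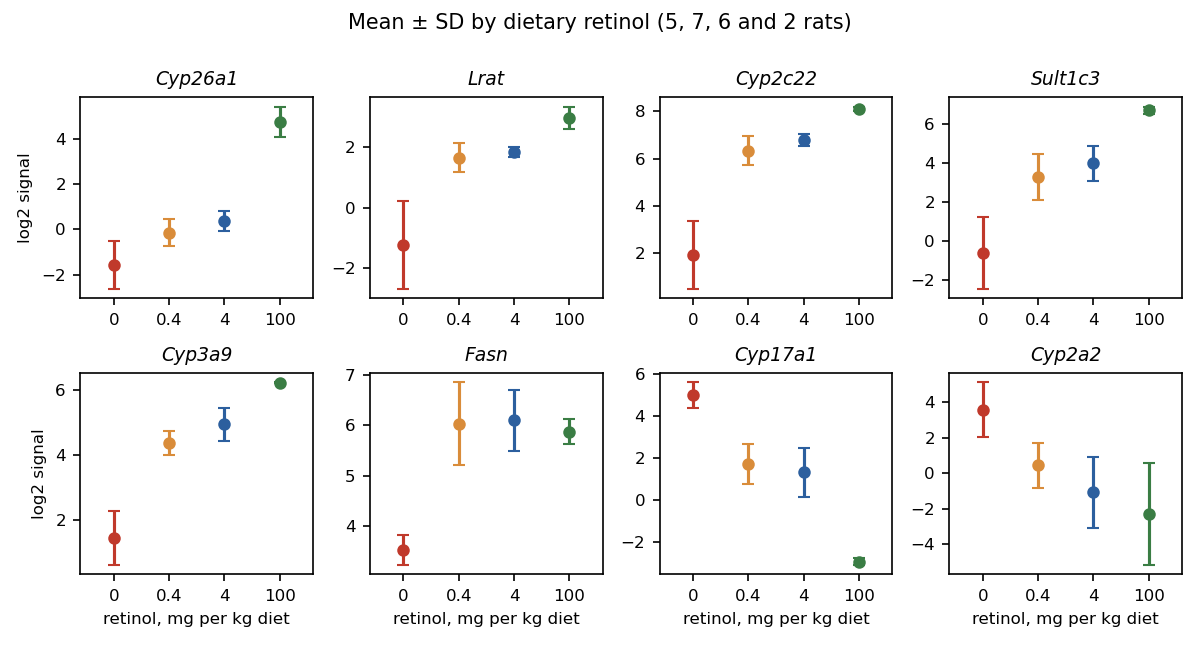
Mean and SD of the log2 signal of 8 genes (y axes differ between panels) in deficient, marginal, adequate and supplemented livers, by retinol in the diet on evenly spaced steps. Fasn is flat from 0.4 mg/kg upwards, at 6.03, 6.10 and 5.88, while Cyp26a1 reaches 4.76 and Cyp17a1 falls to -2.92 at 100 mg/kg.

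The retinoic acid time course used other deficient rats and gives a separate reading of the same genes. All RA times together against vehicle called 46 of 26735 probe sets (0.172%), 21 higher (0.0785%) and 25 lower (0.0935%). The vehicle arrays are titled Untreated 0 hr, and no vehicle array has a later time. The effect of RA and that of the 3 to 16 h that passed therefore cannot be told apart here. Of the 277 probe sets that were low in deficiency 15 were higher after RA and 1 was lower, and of the 22 that were high in deficiency 0 were called in either direction. The 277 had a median RA difference of 0.11, with 58.1% positive, where all probe sets had -0.22 and 34% positive. Among the named genes that fell in deficiency, 7 of 56 rose after RA: Cyp26a1 by 6.03 ± 0.76, Cyp2c22 by 4.11 ± 0.48, Sult1c3 by 3.94 ± 0.76, Lrat by 3.63 ± 0.66, Hlf by 1.45 ± 0.28, Rpp21 by 1.37 ± 0.23 and Ifi27l2b by 1.24 ± 0.21. Fasn was at -0.10 ± 0.38 (adjusted p = 0.95) and Scd at 0.45 ± 0.34 (adjusted p = 0.741), and neither was called. Of the 31 genes of fatty acid and triglyceride synthesis, RA called 1 higher and 1 lower. The higher one was Angptl8, which is not among the 56, by 1.38 ± 0.23 (adjusted p = 0.00296).

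The 3 vehicle livers were unlike each other for these genes. Cyp2c22 had 2.54, 7.11 and 2.83, Sult1c3 -3.70, 1.49 and -4.05, and Lrat -0.39, 2.62 and -4.18 on vehicle replicates 1 to 3. Vehicle replicate 2, labelled as a deficient rat, thus lay within the range of the adequate diet livers for Cyp2c22, above it for Lrat and between the deficient and adequate livers for Sult1c3, while for Cyp26a1 the 3 vehicle livers had -0.89, -1.14 and -4.73. Without it 27 of the 277 were higher after RA and 0 lower, where 45 of all 26664 probe sets were higher and 10 lower. That liver was singled out by genes of the set counted here, so the choice itself in part sets the larger count. Cyp2c7 and Dhrs3 were among the genes called higher without that liver, by 1.51 ± 0.22 (adjusted p = 0.000298) and 1.17 ± 0.22 (adjusted p = 0.0106). Dhrs3 was also called with that liver (0.96 ± 0.20, adjusted p = 0.0274) and Cyp2c7 was not (1.05 ± 0.23, adjusted p = 0.0502). Cyp26a1 was highest at 6 h, with 6.52, 6.27 and 6.45, and at 16 h its livers had 0.38, -2.71 and 4.16.

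**Figure D5:**
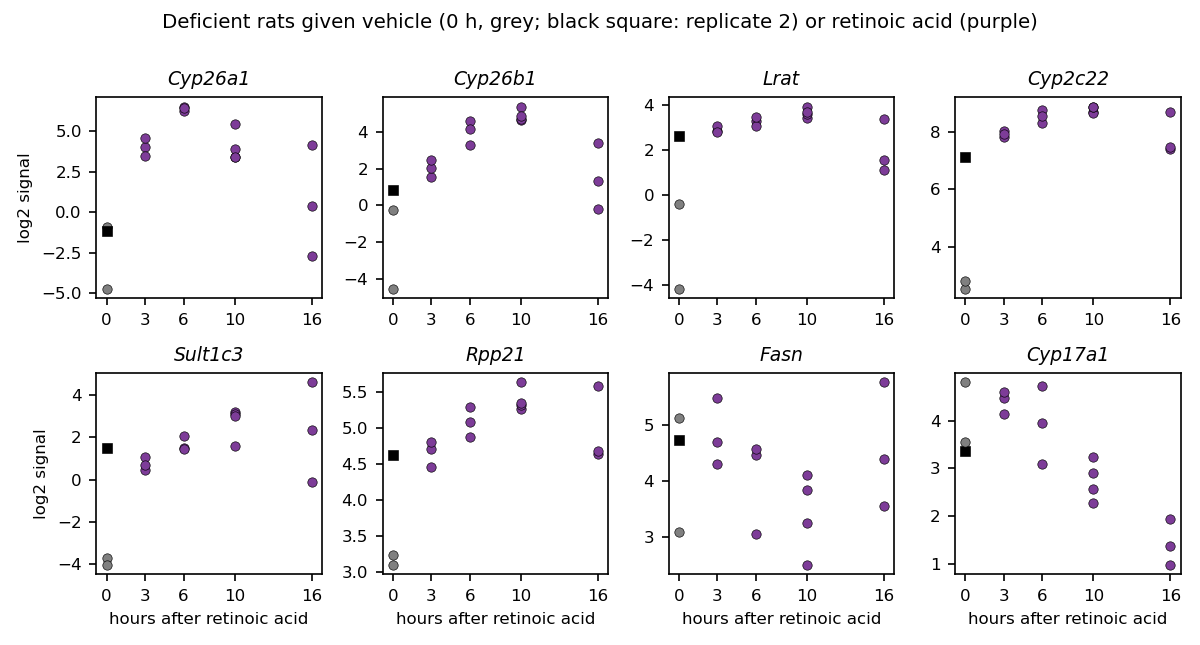
Log2 signal of 8 genes (y axes differ between panels) in single livers of deficient rats given vehicle (0 h) or retinoic acid, by hours after the dose. Vehicle replicate 2 (black square) lies at 7.11 for Cyp2c22, above the other vehicle livers at 2.54 and 2.83, and all RA livers of Cyp2c22 lie at 7.40 or above.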

How the data were processed

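RNA of single rat livers was hybridised to Affymetrix arrays. The authors deposited log2 signals, made with GCOS per the submitters' processing notes, whose version is not given in the sources used here. On each array the median is 0. From these values limma 3.58.1 (R 4.3.3, lmFit and eBayes with a trend) was fitted to the 20 diet arrays with the run as covariate, for probe sets above percentile 40 of their own array on at least 2 arrays, with Benjamini-Hochberg adjustment over all 27595. The arrays' number limits the precision. The fits were tested on simulated data. Of the probe sets, 20832 had 1 gene in the platform annotation, 436 several and 9831 were unnamed here. Rules for named genes allowed up to 22 rises, of which 16 genes were called, and took the 25 largest falls, up to 5 called members of each list, and a short set of listed genes. Members and lists were chosen with earlier results of these data known, and genes said to be picked after their values were seen fall outside these rules. RA times together were set against vehicle (16 arrays). Alternatives covered scaling, filters, floors, variance models, the run, the replicate block and arrays left out. Promoters came from RefSeq (GRCr8), found for 69 of 86 named genes. The intravenous experiment (11 arrays) was not used.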

Additional observations from a re-analysis of the deposited data

Results flagged for a closer look

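In 10 cases a single liver lay far from the rest of its group, by the gap of the highest or lowest array to its neighbour against the range of the group (Dixon's test), among 172 groups tested in 86 genes, where chance alone flags about 1 group in 20. In deficient livers these were A2m at 3.31 and Stk38l at 0.40 on replicate 4, both the highest, and Sult1c3 at -3.82 on replicate 5, the lowest. In adequate livers they were Cpa1 at 4.27 on replicate 2, Cyp26a1 at 1.26 on replicate 1 and Fdft1 at 5.80 on replicate 3, each the highest, and Cyp2c11 at -1.54 on replicate 4, the lowest. Adequate replicate 5, an array that stood apart, gave 3 of the 10, with Slc25a21 at -1.63 and Slco1b2 at 5.54 as the lowest and Sardh at 4.54 as the highest. The part of array quality in these values was not tested.

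The fall of Cyp2c22 in deficient livers differed between the runs by -2.40 (second minus first, adjusted p = 0.00876 in limma), with all deficient livers below all adequate livers in each run.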

How the results depend on the processing

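Of the 299 probe sets called (22 higher, 277 lower), the number changed with scaling mostly through the rises, which were 119 after quantile normalization, 107 with an equal standard deviation on every array, 45 with centring on percentile 75 and 34 with a floor at percentile 20. Without a variance trend 64 were called (5 and 59), without the run covariate 167 (11 and 156), in the first run alone 61 (38 lower), with the run as a random block 13 were higher, and with deficient and adequate arrays alone 144 were called (12 and 132). Chosen after seeing the data, leaving out the 4 arrays that stood apart gave 86 (61 lower), the same after quantile normalization 123 (90 lower), leaving out the 2 arrays of narrow range 157 (45 and 112) and leaving out the 2 of high GAPDH difference 193 (11 and 182). Leaving out 1 array at a time gave 156 to 1493 calls, 13 to 46 higher and 137 to 1447 lower. The difference between runs, called for 15 probe sets, was called for 7 after quantile normalization, 6 with centring on percentile 75, 7 without a trend, 6 without the arrays of narrow range, 24 without those of high GAPDH difference and 2 to 218 with 1 array left out. The RA contrast, with 46 calls, had 139 after quantile normalization, 94 with centring on percentile 75, 0 in limma without a trend (1668 at an unadjusted p under 0.05), 1468 with array weights and 12 to 216 with 1 array left out, of which 186 without vehicle replicate 1 and 12 without vehicle replicate 3. The replicate numbers did not pair the samples, as the correlations of same-numbered deficient and adequate livers were -0.02 to 0.06. With the replicate block 243 probe sets were called in the diets (17 and 226) and 34 in the RA contrast, and 54 of the 72 named calls stayed.

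The direction of 6 genes that were not called turned under some settings. Rbp4 was at -0.0389 without the run covariate, -0.17 in the second run, -0.19 to 0.26 with 1 array left out (lowest without deficient replicate 5) and -0.12 without the arrays of high GAPDH difference. Ttr was at -0.12 in the second run, -0.23 to 0.32 with 1 array left out and -0.14 without the arrays of high GAPDH difference. Aldh1a1 was at 0.0795 in the first run, 0.27 without the arrays that stood apart, 0.22 there after quantile normalization and 0.082 without those of narrow range. Rxra was at -0.00667 in the second run, Igf1 at 0.22 with equal standard deviations, and Cyp7a1 at 0.61 without the run covariate, 0.17 with a random block and 0.0225 with equal standard deviations. The cause was not tested for any of these. All 72 called named genes kept their sign in every setting that gave them a value, which their selection from these same arrays largely sets.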
